A study of Mus musculus with 18 samples.

Results

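The mitochondrial ribosomal proteins are the protein part of the ribosome inside mitochondria. Their genes lie in the nucleus, their messenger RNAs are translated in the cytosol, and the proteins are imported to join ribosomal RNA that mitochondria make themselves. The small subunit reads the messenger RNA and the large subunit joins the amino acids, and the products are membrane subunits of the respiratory chain and ATP synthase, on which heart muscle depends for most of its ATP. In people, defects of several of these proteins, among them MRPL3, MRPL44 and MRPS22, cause mitochondrial disease that can include cardiomyopathy.

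The genes were taken by symbol, as Mrpl or Mrps followed by a digit, with a mean of at least 1 FPKM over 18 libraries. FPKM corrects the reads of a gene for the length of its transcript and for the size of the library. It does not correct for differences between genes in the capture of coding transcripts used here, so levels of different genes compare only roughly. Of 19197 genes in the files, 78 matched the symbol and all 78 met the level, with none near it: the lowest means were 7.31 FPKM for Mrpl19, 9.18 for Mrpl17 and 10.4 for Mrpl57. Their proteins fall into 51 of the large subunit, 26 of the small subunit and 1 of neither. That one is Mrps36, named for the ribosome but known as KGD4, a component of the 2-oxoglutarate dehydrogenase complex of the citric acid cycle. Mrps30 and Mrps18a also carry small-subunit names, but their proteins sit in the large subunit and are counted there.

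Apex tissue of C57BL/6 mouse hearts, taken 1 day after surgery, gave 6 RNA libraries in each of 3 groups; C57BL/6 is an inbred strain. MI_DCA had a myocardial infarction (MI) and the agent DCA at 10 mg/kg per day, MI_vehicle had an infarction and vehicle, and sham_vehicle had a sham operation and vehicle. DCA is not spelled out in the labels; the title of the study names it together with TGR5, a membrane receptor for bile acids. No genetic change is labelled in any group, age and sex are not given here, and nothing says that the libraries of a group come from different mice. The p-values therefore speak only to the spread between the libraries. A library is called a heart below for short, without a claim that each is a separate mouse.

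Summed over all genes, FPKM ranged from 516274 to 584701 per library. The 18 cardiomyocyte markers summed to 43540 FPKM or more in every heart, with none at 0, as the tissue label would have it. On the first principal component, which held 70.3% of the variance, MI_vehicle replicate 4 and MI_DCA replicates 1, 3 and 5 lay on the side of the sham hearts. The first sham heart, which had the highest summed FPKM (584701), also stood apart in these genes, though not in these alone. Its complex I subunits summed to 23430 FPKM, against at most 17910 in the other sham hearts. Its cytosolic ribosomal proteins summed to 35540 FPKM, against at most 27590. That heart was the highest sham heart in 46 of the 78, against 19.2% of all genes tested. Its median difference from the other sham hearts was 0.44 on the log2 scale over 16 genes whose leading transcript is shorter than 800 bases, and 0.08 over 54 longer ones.

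Most of the genes had similar FPKM. Mean FPKM over the 18 hearts had a median of 48.6; it was between 20 and 100 for 60 genes, under 20 for 9 and above 100 for 9. Mrpl42, a protein of the large subunit with no bacterial counterpart, stood first at 491.6 FPKM, followed by Mrpl30 (uL30) at 198.2 and Mrps21 (bS21) at 189.7. Mrpl42 alone made up 10.3% of the summed FPKM of these genes in MI_DCA hearts, 8.15% in MI_vehicle hearts and 12% in sham_vehicle hearts. The sum over the 78 genes was 4837 ± 432 FPKM in MI_DCA hearts, 4430 ± 392 in MI_vehicle hearts and 5113 ± 373 in sham_vehicle hearts (SD, n = 6 each). It ranged from 4243 to 5280, from 4087 to 5096 and from 4749 to 5821 in those groups, so the ranges overlapped. Within a group the hearts were close: the median coefficient of variation of a gene was 11.9% in MI_DCA, 10.99% in MI_vehicle and 8.50% in sham_vehicle hearts.

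The genes lie on 17 chromosomes, and many stand back to back with another gene. A coding gene on the opposite strand started upstream, within 1000 bases of the gene's own start, in 18 of 78 (23.1%). By the same rule it was 6.79% of 21951 coding genes of the GENCODE M21 annotation. Pairs whose starts run past each other were not counted. Mrpl46 and Mrps11, whose exons overlap by 173 bases on opposite strands, are therefore not among the 18. Promoter windows of 250 bases before and 50 after the start were at hand from RefSeq for 69 of the 78 genes. They were searched on both strands for letters bound by factors known to drive nuclear genes for mitochondria. The letters of NRF1, nuclear respiratory factor 1 (GCGC and TGCGC with any 1 base between), were in 13 of 69 windows (18.8%), those of the ETS family, to which GABP belongs (CCGGAAG), in 26 (37.7%), and those of YY1 (AAGATGGC) in 12 (17.4%). In the windows of 9549 tested genes the shares were 11.6%, 20.3% and 5.31%, and in those of all 27025 genes with a window they were 5.19%, 9.93% and 3.19%. At least one of the 3 was in 43 windows (62.3%), against 32.6% of tested genes. The E-box CACGTG was in 5 windows (7.25%), against 11.8% of tested genes, and the half-site AAGGTCA of oestrogen-related receptors in 4 (5.80%), against 3.83%. A match says only that the letters are there.

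Stretches before the start are shown for 4 genes that moved after infarction and for 2 genes whose head-to-head neighbour moved the other way. They are RefSeq sequence of GRCm38.p6, written 5′ to 3′ on the gene's strand and outside every exon of GENCODE M21, with NRF1 and ETS matches in capitals. The searched motifs do not overlap in them. Mrpl52 (chr14:54426659-54426908, plus strand), Mrpl17 (chr7:105811100-105811337, minus strand) and Mrps22 (chr9:98601680-98601929, minus strand) were higher in MI_vehicle hearts, and Mrpl42 (chr10:95501950-95502199, minus strand) was lower. The last 2 are the gaps between Mrpl30 and Mitd1 (chr1:37890412-37890476, plus strand) and between Mrpl49 and Fau (chr19:6057786-6057843, minus strand).
Mrpl52: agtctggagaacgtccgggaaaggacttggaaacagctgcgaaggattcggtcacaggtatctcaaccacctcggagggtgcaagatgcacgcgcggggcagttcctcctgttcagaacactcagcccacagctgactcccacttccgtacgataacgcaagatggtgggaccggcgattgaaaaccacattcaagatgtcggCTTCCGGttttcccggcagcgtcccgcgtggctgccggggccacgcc
Mrpl17: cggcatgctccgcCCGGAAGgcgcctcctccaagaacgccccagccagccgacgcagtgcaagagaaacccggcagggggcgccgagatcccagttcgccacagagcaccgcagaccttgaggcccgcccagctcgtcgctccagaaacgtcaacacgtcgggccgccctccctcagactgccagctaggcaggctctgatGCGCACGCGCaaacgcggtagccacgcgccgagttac
Mrps22: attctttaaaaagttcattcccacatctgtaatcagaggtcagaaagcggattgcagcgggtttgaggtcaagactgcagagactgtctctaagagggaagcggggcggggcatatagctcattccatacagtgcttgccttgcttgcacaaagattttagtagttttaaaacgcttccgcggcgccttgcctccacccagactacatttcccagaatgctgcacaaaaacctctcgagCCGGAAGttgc
Mrpl42: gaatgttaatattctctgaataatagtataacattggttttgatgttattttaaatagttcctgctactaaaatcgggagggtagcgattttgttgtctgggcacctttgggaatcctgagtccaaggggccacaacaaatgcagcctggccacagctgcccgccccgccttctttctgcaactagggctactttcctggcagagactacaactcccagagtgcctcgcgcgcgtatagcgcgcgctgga
Mrpl30: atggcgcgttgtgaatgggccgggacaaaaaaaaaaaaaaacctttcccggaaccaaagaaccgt
Mrpl49: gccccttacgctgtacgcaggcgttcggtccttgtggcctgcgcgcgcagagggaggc
The stretches of Mrpl52, Mrpl17 and Mrps22 each hold an ETS match, and that of Mrpl17 also an NRF1 match. The other 3 stretches hold none of these letters, but the full windows of their genes do. Outside the printed part, those of Mrpl42 and Mrpl49 hold YY1 letters and that of Mrpl30 holds NRF1 letters. Among genes called after infarction, NRF1 letters were in 1 of 7 windows of genes that rose and 6 of 21 of genes that fell, and in 6 of 41 of the others. ETS letters were in 4 of 7, 5 of 21 and 17 of 41, and YY1 letters in 0 of 7, 3 of 21 and 9 of 41.

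Infarction was first compared with sham surgery in the vehicle groups. The genes did not move together: 9 of 78 (11.5%) rose, 24 (30.8%) fell, and no called gene changed by as much as 1 on the log2 scale. The test was limma on log2(FPKM + 1), fitted over all 11969 genes with at least 1 FPKM in at least 6 of the 12 libraries, with a Benjamini-Hochberg adjusted p under 0.05 over all of them. By the same test 38.3% of all genes rose and 20.1% fell, and 58.4% were called in either direction, against 33 of the 78 (42.3%). Their median log2 fold change was -0.09, against 0.12 over all genes tested. In bulk tissue, fewer cells of a type and less RNA per cell cannot be told apart.

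The scale matters for this split. On the log2 scale, median-ratio scaling shifted the all-gene median by -0.12 and quantile normalization by -0.15, and the 78 genes then gave 5 higher and 39 lower, or 4 higher and 38 lower. Over all genes tested, the calls were 3379 higher and 3430 lower with median-ratio scaling and 3189 and 3693 with quantile normalization, against 4583 and 2408 as deposited. Relative to the median of all genes, the median of the 78 was lower by a similar amount in each: it differed by -0.21 as deposited, by -0.23 with median-ratio scaling and by -0.18 with quantile normalization. No called gene changed sign. All 24 genes called lower kept that call under both scalings, and 5 and 4 of the 9 called higher kept theirs. Without MI_vehicle replicate 4 the counts were 9 higher and 30 lower, and without sham_vehicle replicate 1 they were 9 and 22. The calls over all genes tested moved too: leaving out each heart in turn gave 4017 to 4979 higher and 2038 to 2740 lower.

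**Figure D1:**
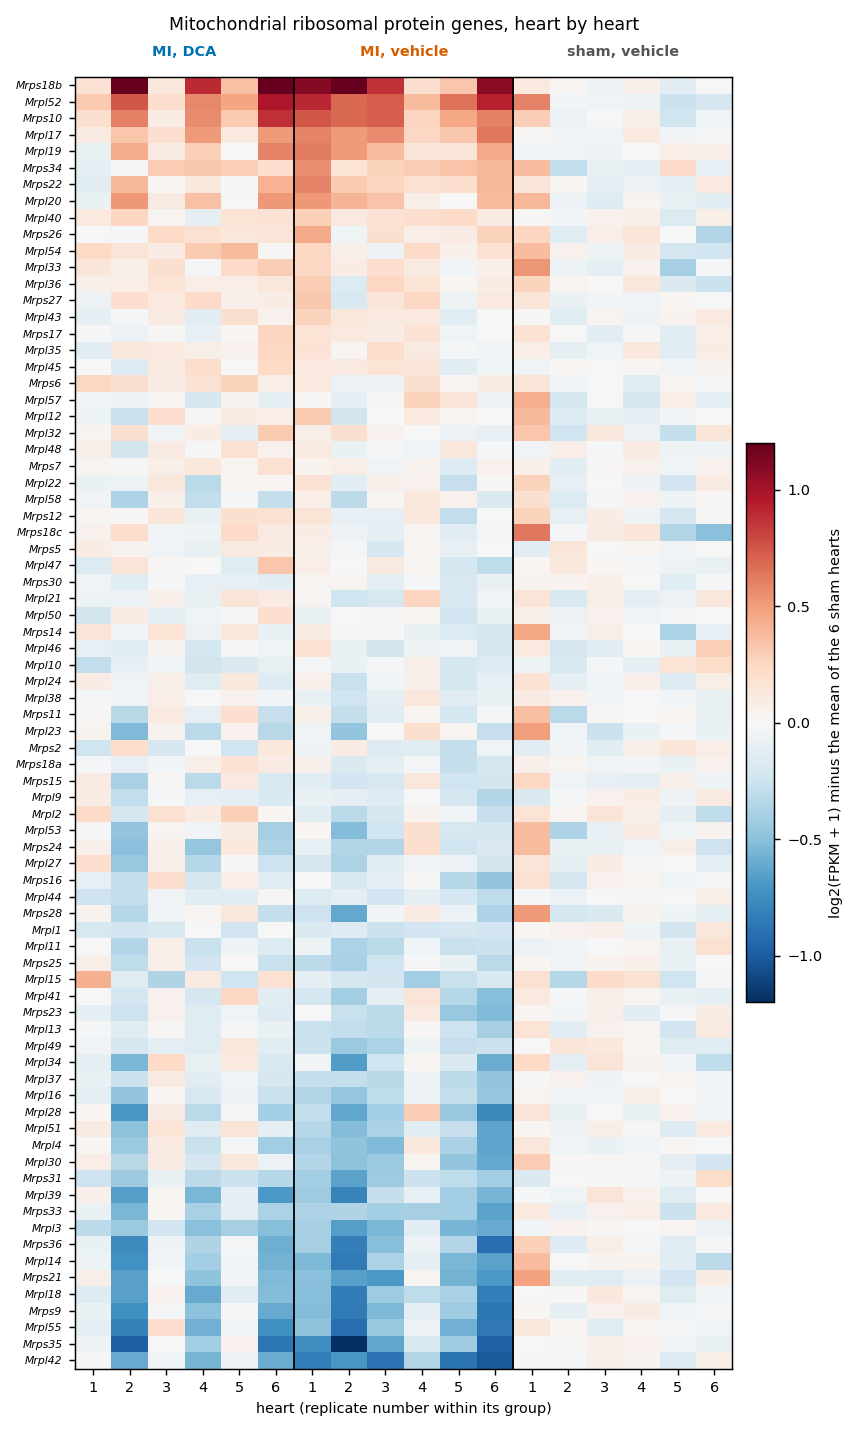
Level of each of the 78 mitochondrial ribosomal protein genes (rows) in each heart (columns, by group and replicate number), as log2(FPKM + 1) minus the mean of the 6 sham_vehicle hearts; rows run from the largest rise to the largest fall of MI_vehicle over sham_vehicle hearts. Red at the top is led by Mrps18b and blue at the bottom by Mrpl42, and MI_vehicle replicate 4 and MI_DCA replicates 1, 3 and 5 are paler than the other infarcted hearts.

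The calls were spread over both subunits. Of 51 large subunit genes 5 rose and 17 fell, with a median log2 fold change of -0.09, and of 26 small subunit genes 4 rose and 6 fell, with a median of -0.08. Of 46 genes whose proteins have bacterial counterparts 4 rose and 13 fell, and of 31 classed as special to mitochondria 5 rose and 10 fell. The latter class includes Mrps18a (mL66) and Mrps18b (mS40), although both are relatives of bacterial protein S18. Within those with bacterial counterparts, 3 of 30 large subunit genes rose and 11 fell, and 1 of 16 small subunit genes rose and 2 fell. The difference between these classes was not tested. Without MI_vehicle replicate 4, 21 large and 8 small subunit genes fell, and without sham_vehicle replicate 1 it was 15 and 6, with 5 and 4 rising in both cases. Mrps36, of neither subunit, fell. The groups did not overlap for 5 genes that were higher and 9 that were lower, 6.41% and 11.5% of the 78, against 16.1% and 5.74% of all genes tested (21.8% in either direction). Those counts rest on 1 infarcted heart. Without MI_vehicle replicate 4, an alternative chosen after seeing the data, they were 7 higher and 23 lower (8.97% and 29.5%). The shares of all genes tested were then 31.2% and 14.2%. Without sham_vehicle replicate 1 they were 7 and 9 (8.97% and 11.5%), against 18.6% and 8.01% of all genes tested.

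The largest rise was that of Mrps18b (mS40; chromosome 17, 35910380 to 35916440, GRCm38), one of 3 relatives of bacterial protein S18. It had 46.4, 80.3 and 95.8 FPKM in MI_vehicle hearts (lowest, median, highest), against 36.5, 40.6 and 43.8 in sham_vehicle hearts. Every infarcted heart lay above every sham heart, although MI_vehicle replicates 4 and 5, at 46.4 and 50.9 FPKM, were near the sham hearts. The log2 fold change was 0.80 (SE 0.16, limma adjusted p = 0.00127). The gene shares 417 bases at 99.8% identity with the annotated gene Gm13552, and how reads of such copies were assigned is not given. Its relatives did not pass the test: Mrps18a (mL66, in the large subunit) differed by -0.12 (95% interval -0.28 to 0.03) and Mrps18c (bS18, the direct counterpart) by -0.04 (-0.36 to 0.29). Mrps18c was spread widely in sham hearts, from 36.2 to 80.8 FPKM, with the first sham heart highest.

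Mrpl52 (mL52, a large subunit protein special to mitochondria) had 101.9, 128.1 and 148.8 FPKM in MI_vehicle hearts, against 65.0, 75.2 and 118.5 in sham_vehicle hearts. The groups overlapped through the first sham heart alone, the next sham heart being at 76.5 FPKM. The log2 fold change was 0.71 (SE 0.14, limma adjusted p = 0.00101). Mrps10 (uS10, in the head of the small subunit) had 23.1, 30.6 and 32.9 FPKM in MI_vehicle hearts and 16.1, 18.8 and 23.7 in sham_vehicle hearts, a log2 fold change of 0.58 (SE 0.10, limma adjusted p = 0.000609). It shares 573 bases at 97.9% identity with another annotated gene. Mrpl17 (bL17, near the exit of the peptide tunnel) was low in all hearts but cleanly separated, with 8.96, 11.2 and 12.1 FPKM in MI_vehicle hearts and 7.14, 7.24 and 8.13 in sham_vehicle hearts (log2 fold change 0.48, SE 0.08, limma adjusted p = 0.000371). These 4 genes were called higher under every alternative tried.

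The other rises that the naming rule took up were smaller and depended more on the scale. Mrpl19 (bL19) averaged 8.34 ± 1.25 FPKM in MI_vehicle hearts and 6.14 ± 0.29 in sham_vehicle hearts, with no overlap (log2 fold change 0.38, limma adjusted p = 0.00296). Quantile normalization took it past the threshold (limma adjusted p = 0.0611). Mrps34 (mS34) averaged 61.7 ± 5.91 and 49.1 ± 8.82 FPKM, and Mrps22 (mS22) averaged 21.1 ± 2.46 and 16.6 ± 1.37 FPKM, in MI_vehicle and sham_vehicle hearts. Their log2 fold changes were 0.34 and 0.33 (limma adjusted p = 0.0190 and 0.00494). Both calls were lost under both scalings, with adjusted p up to 0.170 for Mrps34 and 0.0575 for Mrps22. Exons of Mrps34 overlap those of 2 coding genes on the other strand, Mapk8ip3 and Nme3. Mrpl20 (bL20) averaged 68.9 ± 9.59 FPKM in MI_vehicle hearts and 56.2 ± 8.88 in sham_vehicle hearts, with sham values up to 73.7 in the first sham heart. Its log2 fold change of 0.29 (limma adjusted p = 0.0432) lost its call with median-ratio scaling (limma adjusted p = 0.269), quantile normalization, no filter on low values and one fit over 18 libraries. It was also lost in 9 of the 12 fits that left out 1 heart, with adjusted p up to 0.0981, among them those without MI_vehicle replicates 1, 2, 3 or 6 and without sham_vehicle replicates 2 to 6.

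**Figure D2:**
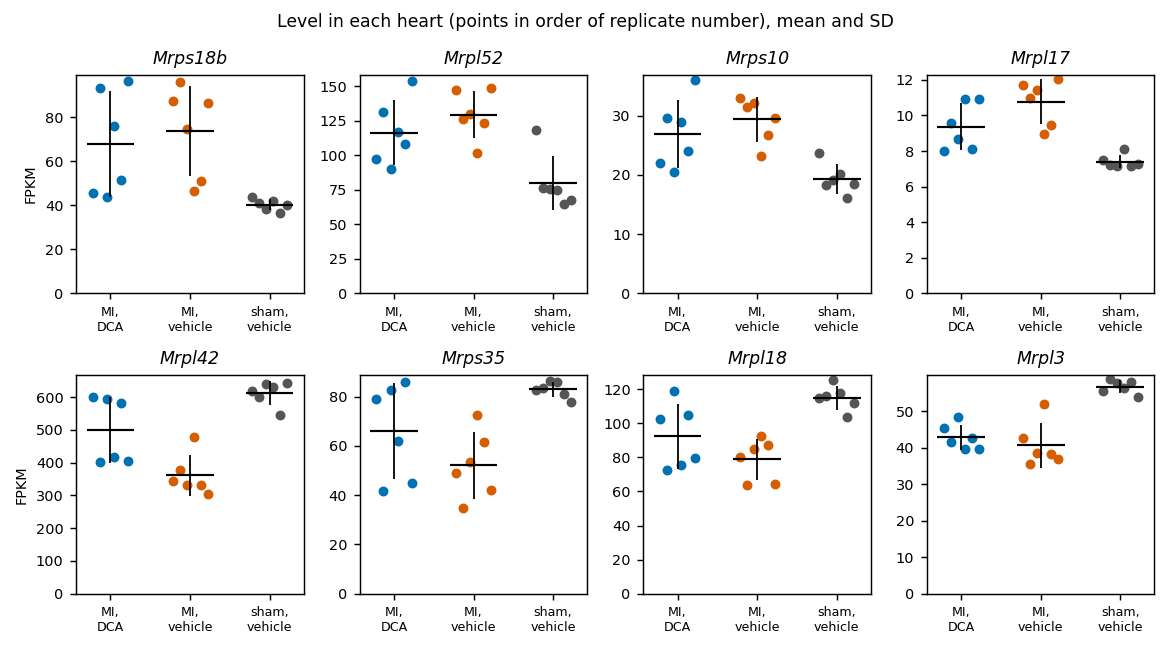
FPKM (vertical axis, from 0) of 4 genes that rose (top) and 4 that fell (bottom) after infarction, 1 point per heart, with the mean as a bar and the SD as a line, for MI_DCA, MI_vehicle and sham_vehicle hearts. The sham hearts are tightly grouped for most genes, whereas the MI_DCA hearts of Mrps18b and Mrpl42 form a high and a low set. Those of Mrps35 are widely spread, with replicate 4 between the others.

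Mrpl42, the highest of these genes in FPKM, also fell most. It had 304.6, 338.1 and 478.4 FPKM in MI_vehicle hearts, against 545.0, 624.5 and 643.8 in sham_vehicle hearts. The groups did not overlap, and MI_vehicle replicate 4 was the highest infarcted heart. The log2 fold change was -0.78 (SE 0.11, limma adjusted p = 0.000164). Both deposited transcripts of the gene were lower. The leading one averaged 201.9 FPKM in MI_vehicle hearts and 392.3 in sham_vehicle hearts, and the other 159.3 and 221.1, so that the leading one held 55.9% of the gene in MI_vehicle and 63.9% in sham_vehicle hearts. Reads of 50 bases divide transcripts poorly, and this split was not tested. The gene shares 216 bases at 97.2% identity with Gm6419.

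Mrps35 (mS35, special to mitochondria) had 34.7, 51.2 and 72.5 FPKM in MI_vehicle hearts, against 77.9, 83.2 and 86.3 in sham_vehicle hearts. The sham hearts were narrowly spread and the infarcted hearts covered a range of more than 30 FPKM, all below them (log2 fold change -0.70, SE 0.14, limma adjusted p = 0.00129). Mrpl18 (uL18, whose bacterial counterpart binds 5S ribosomal RNA) had 63.8, 82.5 and 92.8 FPKM in MI_vehicle hearts and 103.8, 115.4 and 125.4 in sham_vehicle hearts. These groups did not overlap either (log2 fold change -0.55, SE 0.10, limma adjusted p = 0.000742). Its exons overlap those of Tcp1 on the other strand by 124 bases. Mrpl3 (uL3, which reaches towards the peptidyl transferase centre) had 35.5, 38.3 and 52.0 FPKM in MI_vehicle hearts and 53.9, 57.1 and 58.7 in sham_vehicle hearts, without overlap (log2 fold change -0.48, SE 0.09, limma adjusted p = 0.000670).

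Mrpl55 (bL31) and Mrps9 (uS9, at the decoding side of the small subunit) fell by 0.56 and 0.55 on the log2 scale (SE 0.13 and 0.12, limma adjusted p = 0.00222 and 0.00147). Mrpl55 averaged 56.4 ± 12.7 FPKM in MI_vehicle hearts and 82.0 ± 5.19 in sham_vehicle hearts, and Mrps9 averaged 40.0 ± 8.31 and 58.3 ± 3.03 FPKM. In both, 1 infarcted heart, MI_vehicle replicate 4, reached into the range of the sham hearts. Mrps21 averaged 157.7 ± 34.7 FPKM in MI_vehicle hearts and 224.6 ± 44.3 in sham_vehicle hearts (log2 fold change -0.51, limma adjusted p = 0.00868), with replicate 4 at 226.8 FPKM and the other infarcted hearts at or below 155.8. Mrpl14 (uL14, at the face between the subunits) and Mrps36 each changed by -0.51 (limma adjusted p = 0.00452 and 0.00594). Mrps36 averaged 77.3 ± 16.9 FPKM in MI_vehicle hearts and 108.9 ± 12.8 in sham_vehicle hearts, and shares 309 bases at 99.0% identity with the annotated copy Mrps36-ps2. Mrps31 (mS31) averaged 23.2 ± 2.18 FPKM in MI_vehicle hearts and 31.2 ± 2.88 in sham_vehicle hearts, without overlap (log2 fold change -0.41, limma adjusted p = 0.00115). Of the 24 falls, 20 were called under every alternative tried.

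Genes that missed the threshold were bounded by their intervals. Mrpl12 (bL12), the stalk protein that human work has also found bound to mitochondrial RNA polymerase, averaged 144.4 ± 17.98 FPKM in MI_vehicle hearts and 140.8 ± 21.5 in sham_vehicle hearts, a log2 difference of 0.04 with a 95% interval from -0.20 to 0.28. Mrps30 (mL65) averaged 34.9 ± 2.23 and 36.3 ± 1.89 FPKM, a log2 difference of -0.06 (-0.20 to 0.09). Mrpl57 (mL63) averaged 10.8 ± 1.18 and 10.5 ± 2.11 FPKM, a log2 difference of 0.04 (-0.20 to 0.28). Over all 78 genes, the interval lay within ±0.5 on the log2 scale for 52.

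**Figure D3:**
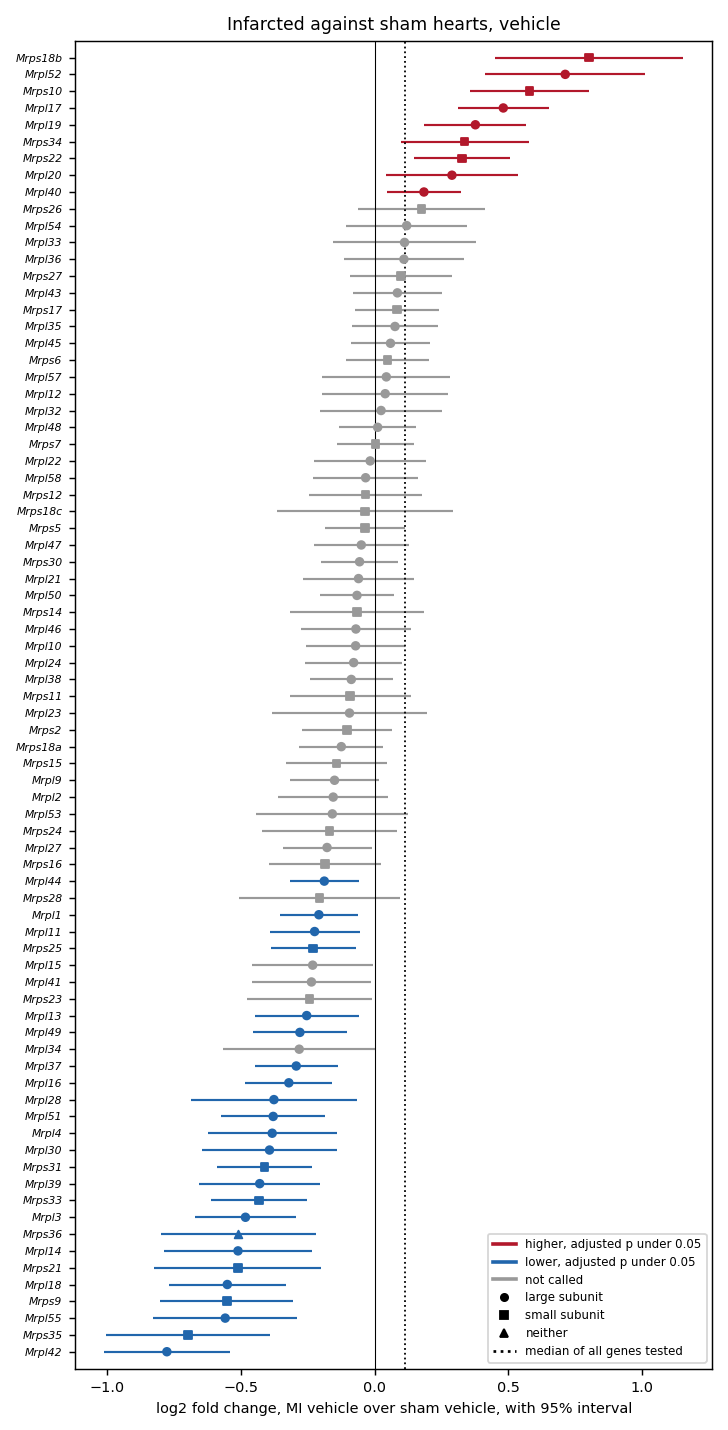
Log2 fold change of MI_vehicle over sham_vehicle hearts (horizontal axis) for each gene, with its 95% interval as a line. Symbols give the subunit, colours the call, and the dotted line the median of all genes tested at 0.12. The 9 genes in red and the 24 in blue lie at the 2 ends of a continuous run from -0.78 to 0.80.

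The genes that the mitochondrial ribosome works with were counted in the same fit. Its products join nuclear-encoded subunits in the respiratory complexes other than complex II. The nuclear-encoded subunits, those of complex II included, fell nearly throughout: 35 of 36 of complex I (median log2 fold change -0.58) and 34 of 37 of complexes II to V (-0.61), with none higher. Ndufs1 averaged 152.6 ± 44.8 FPKM in MI_vehicle hearts and 271.0 ± 20.7 in sham_vehicle hearts. Proteins of the cytosolic ribosome went the other way, with 72 of 80 higher and 1 lower (median 0.58). The mitochondrial ribosomal proteins, at a median of -0.09, lay between. The 1 cytosolic gene that fell was Rpl3l, the form of Rpl3 found in striated muscle, at 74.9 ± 34.1 FPKM in MI_vehicle hearts and 190.8 ± 22.4 in sham_vehicle hearts, whereas Rpl3 rose to 445.1 ± 119 FPKM in MI_vehicle hearts, against 163.1 ± 10.7 in sham_vehicle hearts.

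Its other partners gave few rises. Of 15 mitochondrial translation factors 1 rose and 8 fell (median log2 fold change -0.28), among the falls the elongation factor Tufm (-0.60, SE 0.12, limma adjusted p = 0.00123) and Lrpprc, which stabilises mitochondrial messenger RNA (-0.59, SE 0.12, limma adjusted p = 0.00128). Of 25 assembly factors of the mitochondrial ribosome 1 rose and 8 fell (-0.12), of 20 mitochondrial tRNA-charging enzymes 2 rose and 9 fell (-0.14), and of 13 genes of mitochondrial DNA transcription and maintenance 1 rose and 5 fell (-0.20). Of 6 mitochondrial ribosomal proteins under other symbols none rose and 2 fell, Dap3 (-0.30, limma adjusted p = 0.0152) and Ptcd3 (-0.37, limma adjusted p = 0.00277), both of the small subunit. Among 14 mitochondrial chaperones and proteases 1 rose and 8 fell (-0.21). Regulators of mitochondrial gene expression moved both ways, 4 up and 5 down of 13. Ppargc1a, the coactivator PGC-1α, averaged 9.97 ± 3.28 FPKM in MI_vehicle hearts and 22.9 ± 2.72 in sham_vehicle hearts (log2 fold change -1.17, limma adjusted p = 0.000254), and Myc averaged 22.3 ± 10.7 and 4.26 ± 0.89 FPKM (1.98, limma adjusted p = 0.000428). Nrf1, Gabpa and Esrra, which encode NRF1, the DNA-binding part of GABP and an oestrogen-related receptor, did not pass the test, with log2 differences of 0.20, -0.20 and -0.30 (limma adjusted p = 0.0570, 0.0976 and 0.0922). Messenger RNAs encoded in mitochondrial DNA were not analysed here.

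**Figure D4:**
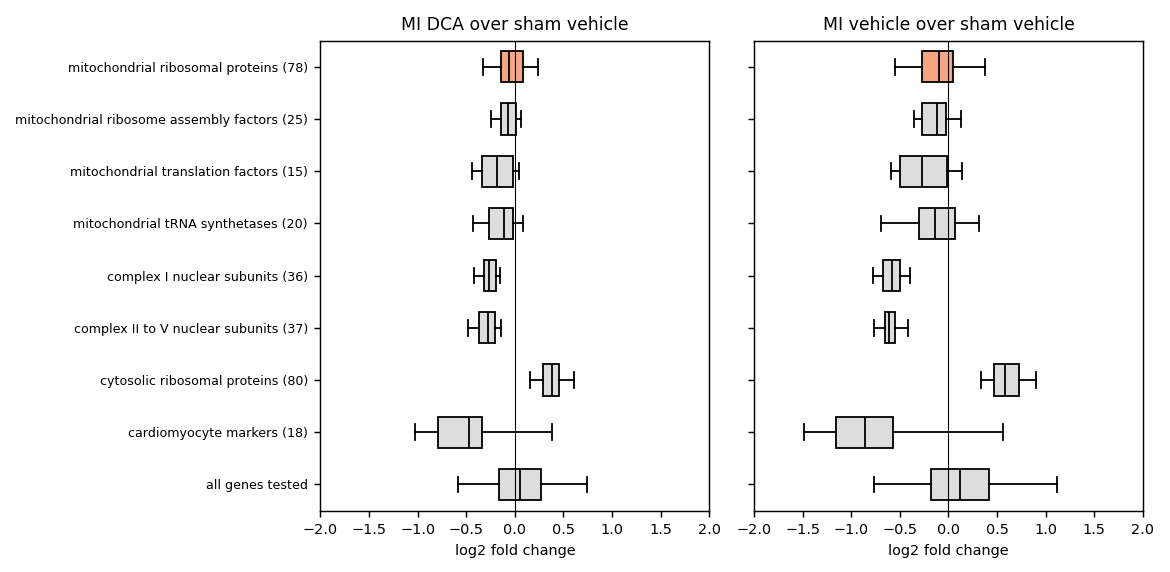
Log2 fold changes over sham_vehicle hearts of MI_DCA (left) and MI_vehicle hearts (right) for the genes of each list, with the number tested in brackets; boxes run from the 25th to the 75th percentile, the line is the median and whiskers run from the 5th to the 95th percentile. Both panels share the sham hearts. The mitochondrial ribosomal proteins (orange) straddle 0, with the complexes to their left and the cytosolic ribosomal proteins to their right.

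Cell type markers moved in the same comparison. Cardiomyocyte markers were higher for 2 and lower for 14 of 18, and summed to 43540 to 71720 FPKM in MI_vehicle hearts and 71700 to 82590 in sham_vehicle hearts. Monocyte and macrophage markers were higher for 14 of 15, with none lower, and summed to 796.5 to 1525 and 406.9 to 692.9 FPKM. Neutrophil markers were higher for all 7 tested of 12 and summed to 63.0 to 402.2 and 11.8 to 41.4 FPKM, with Ltf averaging under 0.1 FPKM in both groups and Ly6g and Camp in the sham hearts. Atrial markers were higher for 1 and lower for 1 of the 3 tested of 6, and summed to 779.7 to 7047 and 161.1 to 466.2 FPKM. Nppa, which stressed ventricle also makes, was the higher one, averaging 3753 FPKM in MI_vehicle hearts and 329.8 in sham_vehicle hearts. Kcna5 was the lower one, averaging 7.33 FPKM in MI_vehicle hearts and 19.6 in sham_vehicle hearts. Bmp10 was listed at 0 in both groups. Endothelial markers were higher for 2 and lower for 5 of 11, and summed to 1586 to 2635 and 2574 to 3903 FPKM. Fibroblast markers were higher for 4 and lower for 3 of 10, and summed to 963.9 to 1381 and 1333 to 1675 FPKM. The part of these markers in the values of the mitochondrial ribosomal proteins was not tested.

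The infarcted hearts differed among themselves in these genes. Of the 24 genes that fell, 22, 23, 24, 10, 23 and 24 lay below the lowest sham heart in MI_vehicle replicates 1 to 6. Replicate 4 was the exception. In MI_DCA replicates 1 to 6 the numbers were 6, 23, 1, 20, 5 and 18 of the same 24. In these 24 genes, replicates 2, 4 and 6 thus resembled most MI_vehicle hearts and replicates 1, 3 and 5 did not. For the 9 genes that rose, those above the highest sham heart numbered 2, 8, 3, 4, 3 and 8 in MI_DCA replicates 1 to 6. In MI_vehicle replicates 1 to 6 they numbered 9, 8, 7, 5, 7 and 8, so by this count MI_DCA replicate 4 lay below every MI_vehicle heart. By the mean log2 difference from the sham mean over these genes it did not. That was 0.39 in MI_DCA replicate 4, against 0.22 and 0.30 in MI_vehicle replicates 4 and 5. The genes had been chosen on the MI_vehicle and sham_vehicle hearts, so these counts and means are descriptions. The 4 infarcted hearts with the fewest of the 24 below the sham hearts, MI_DCA replicates 1, 3 and 5 and MI_vehicle replicate 4, also had the highest sums of cardiomyocyte markers among infarcted hearts, from 69800 to 76220 FPKM. Their Nppb, a natriuretic peptide gene induced in stressed ventricle, was at 144.3 to 323.8 FPKM, against 1102 FPKM or more in the other infarcted hearts.

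**Figure D5:**
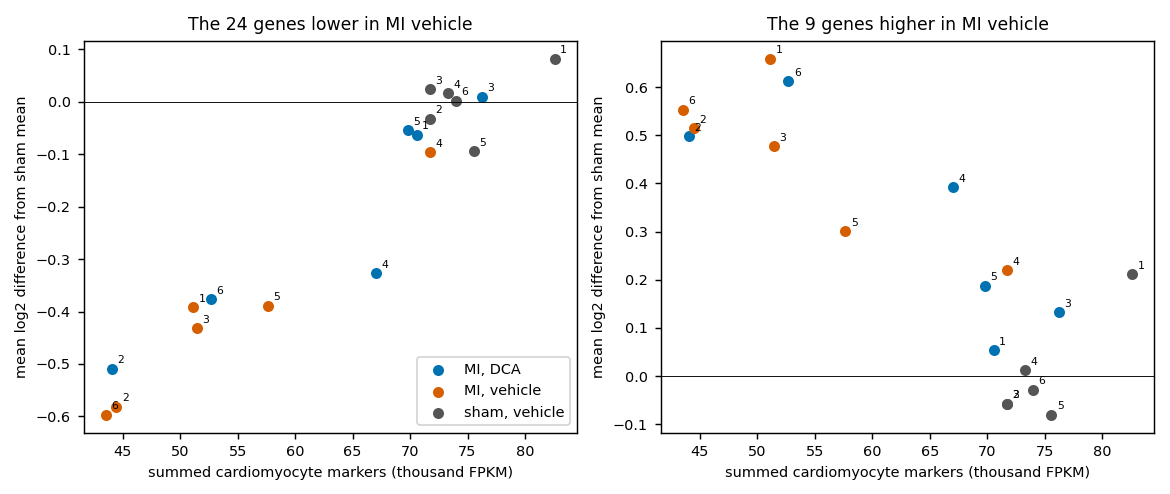
Mean log2(FPKM + 1) difference from the mean of the sham hearts (vertical axis) over the 24 genes called lower (left) and the 9 called higher (right) in MI_vehicle hearts, against the summed FPKM of 18 cardiomyocyte markers (horizontal axis, in units of 1000 FPKM), 1 point per heart labelled with its replicate number. MI_DCA replicates 1, 3 and 5 and MI_vehicle replicate 4 sit beside the sham hearts, and the other infarcted hearts lie below them on the left plot and above them on the right. The genes were chosen on 2 of the groups shown.

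DCA was next compared with vehicle after infarction. No mitochondrial ribosomal protein gene was called by limma at an adjusted p under 0.05, and neither was any of the 12004 genes tested (0%). The groups overlapped in all 78 genes, against 0.075% of all genes with no overlap and higher values in MI_DCA hearts, 0.467% with lower ones and 0.541% in either direction. Leaving out MI_vehicle replicate 4 was an alternative chosen after seeing the data. Without that heart, 6 of the 78 (7.69%) were higher in every MI_DCA heart than in every other MI_vehicle heart. The share of all genes was 0.442%, and still none of the 78 was called. It was the only MI_vehicle heart on the side of the sham hearts on the first principal component. The MI_DCA hearts on that side were kept, so the comparison was uneven. With any other heart left out, 0 of the 78 were without overlap. With all hearts kept, there were 7 of the 78 at an unadjusted p under 0.05, all higher, and 1299 of all genes (10.8%). The smallest adjusted p was 0.407 among the 78 and 0.301 over all genes. The median log2 fold change was 0.07 over the 78 and -0.06 over all genes, and 56 of the 78 were above 0 and 22 below. The intervals limit what can be said: for 64 genes the 95% interval lay within ±0.5 on the log2 scale, and the widest reached from -0.68 in one gene to 0.80 in another.

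The 3 genes with the smallest unadjusted p in the upward direction were Mrpl42, Mrpl30 and Mrpl2. Mrpl42 had 402.8, 499.8 and 600.9 FPKM in MI_DCA hearts, against 304.6, 338.1 and 478.4 in MI_vehicle hearts. In MI_DCA hearts it formed 2 sets, with replicates 1, 3 and 5 at 583.3 FPKM or more and replicates 2, 4 and 6 at 416.2 or less. The log2 difference was 0.46 (95% interval 0.13 to 0.79, limma adjusted p = 0.407). Mrpl30 averaged 210.5 ± 26.4 FPKM in MI_DCA hearts and 166.3 ± 28.5 in MI_vehicle hearts, with MI_vehicle replicate 4, at 221.6 FPKM, far above the other 5 (log2 difference 0.34, limma adjusted p = 0.407). Mrpl2 (uL2, by the peptidyl transferase centre) averaged 71.0 ± 8.55 and 59.1 ± 5.93 FPKM (log2 difference 0.26, limma adjusted p = 0.424). In the downward direction the smallest p were those of Mrpl17 (-0.19), Mrps34 (-0.17) and Mrps22 (-0.19), with limma adjusted p from 0.497 to 0.518.

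The widest intervals were those of Mrps18b and Mrps35. Mrps18b had 43.9, 63.6 and 96.3 FPKM in MI_DCA hearts, against 46.4, 80.3 and 95.8 in MI_vehicle hearts, a log2 difference of -0.14 (95% interval -0.68 to 0.40). Mrps35 had 41.6, 70.5 and 86.1 FPKM in MI_DCA hearts, against 34.7, 51.2 and 72.5 in MI_vehicle hearts, a log2 difference of 0.32 (-0.16 to 0.80). Mrps30 had the narrowest of the 78, with a log2 difference of -0.03 (-0.17 to 0.10).

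DCA-treated infarcted hearts were last set against the sham hearts, which are those of the first comparison. Of the 78 genes, 4 rose (5.13%) and 2 fell (2.56%), against 15.5% and 8.33% of 11842 genes tested (23.8% in either direction). The 4 were Mrps18b (log2 fold change 0.66, SE 0.19), Mrpl52 (0.55, SE 0.16), Mrps10 (0.44, SE 0.13) and Mrpl17 (0.30, SE 0.09), with limma adjusted p from 0.0304 to 0.0333. In MI_vehicle hearts against the same sham hearts the values of these genes were 0.80, 0.71, 0.58 and 0.48. Without MI_DCA replicate 2, 4 or 6, or sham_vehicle replicate 2, 3, 5 or 6, none of the 4 was called, and without sham_vehicle replicate 4 only 1 gene was higher. Without sham_vehicle replicate 1 there were 5 higher and 2 lower. With median-ratio scaling 2 genes were higher and 5 lower. Over all genes tested it gave 1346 higher and 1393 lower, against 1830 and 987 as deposited.

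The 2 that fell were Mrpl3 and Mrps31. Mrpl3 had 39.6, 42.1 and 48.3 FPKM in MI_DCA hearts, against 53.9, 57.1 and 58.7 in sham_vehicle hearts, and every DCA-treated heart, replicates 1, 3 and 5 included, was below every sham heart. Its log2 fold change was -0.40 (SE 0.07, limma adjusted p = 0.00606), and of the 6 calls this one was made under every alternative tried. Mrps31 had 22.7, 25.4 and 29.3 FPKM in MI_DCA hearts, against 27.6, 31.1 and 36.4 in sham_vehicle hearts (log2 fold change -0.28, SE 0.08, limma adjusted p = 0.0292). Its call was lost in 8 of 12 fits that left out 1 heart, namely without MI_DCA replicate 2, 4 or 6 or sham_vehicle replicates 2 to 6, with adjusted p up to 0.0621. Without MI_DCA replicate 3 the number of the 78 genes lower was 9, without replicate 1 it was 6 and without replicate 5 it was 4. The calls over all genes tested moved too: leaving out each heart in turn gave 740 to 2596 higher and 315 to 1489 lower. Mrps18b and Mrpl3 were the 2 genes whose groups did not overlap, 1.28% of the 78 in each direction, against 6.31% and 2.84% of all genes tested (9.15% in either direction). Without sham_vehicle replicate 1 there were 4 such genes higher and 2 lower (5.13% and 2.56%), against 8.43% and 4.97% of all genes tested. Without sham_vehicle replicate 4 there were 2 and 1, against 7.55% and 3.22% of all genes. Without MI_DCA replicate 3 there were 1 and 3, against 10.9% and 4.42% of all genes. Without sham_vehicle replicate 5 there were also 1 and 3, against 6.6% and 3.27%. Mrpl42 averaged 500.1 ± 101 FPKM in MI_DCA hearts and 613.4 ± 37.1 in sham_vehicle hearts and did not pass the test (log2 difference -0.32, limma adjusted p = 0.0823).

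The related lists in MI_DCA hearts against sham hearts gave 2 lower of 36 for complex I (median log2 fold change -0.27), 3 lower of 37 for complexes II to V (-0.28) and 33 higher of 80 for cytosolic ribosomal proteins (0.38). Of the 15 translation factors 4 fell, and of the 13 genes of mitochondrial DNA transcription and maintenance 5 fell. Cardiomyocyte markers were lower for 7 of 18 and monocyte and macrophage markers higher for 8 of 15, with sums of 44020 to 76220 and 539.3 to 1128 FPKM in MI_DCA hearts. Their part in the values of the 78 genes was not tested.

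The head-to-head neighbours were looked up in the same fits. In 17 of the 18 pairs both genes were tested in MI_vehicle against sham_vehicle hearts, and 9 of the partners were called, 6 higher and 3 lower, beside 58.4% of all genes. In 5 pairs both genes were called, 3 in the same direction and 2 in opposite directions. These pairs are named here after their values were seen. Mrpl30 changed by -0.39 (SE 0.12, limma adjusted p = 0.0112), while Mitd1, which starts 66 bases away and has a role in the last step of cell division, rose by 0.83 (SE 0.12, limma adjusted p = 0.000176), with 6.90 ± 1.02 FPKM in MI_vehicle hearts and 3.46 ± 0.72 in sham_vehicle hearts. Mrpl49 (mL49) changed by -0.28 (SE 0.08, limma adjusted p = 0.00999), while Fau, which starts 59 bases away and encodes a protein of the small cytosolic subunit, rose by 0.46 (SE 0.11, limma adjusted p = 0.00396). The stretches of 65 and 58 bases printed above are what lies between these starts. The pairs that moved together were Mrpl37 with Cyb5rl, both lower, and Mrpl40 with Hira and Mrps34 with Eme2, all 4 higher. Of these, the calls of Mrpl40 (limma adjusted p up to 0.547), Hira (0.273 and 0.676), Mrps34 and Eme2 (0.221 and 0.451) were lost under both scalings. Those of Mrpl40, Hira and Eme2 were also lost in some fits that left out 1 heart, and that of Cyb5rl was lost without MI_vehicle replicate 3 (limma adjusted p = 0.0523). Both genes of the 2 opposed pairs were called under every alternative tried.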

How the data were processed

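Members and gene lists were chosen with earlier results of these data known. Total RNA from perfused, frozen hearts was prepared with RNA Access, a capture of coding transcripts, and sequenced as single 50-base reads, per the labels' protocols. The submitters' processing notes name DESeq2 1.4.5, RSEM 1.2.12 and Bowtie2 2.2.5, and the build GRCm38.p6. What each did, the annotation and the use of strand are not stated there. The values deposited by the authors are FPKM per gene and per transcript. The header does not name this unit, which was checked from the values: over transcripts with a RefSeq length, the sum of value times length varied by 0.677% between libraries and the sum of values by 3.50%. Low values fell on steps of 1 read that put depth at 9600000 to 13800000 reads per library, searched between 8000000 and 16000000 and so only an estimate. There are no counts, so errors are spreads between libraries.

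Groups follow the treatment and tissue labels. Symbols altered to dates were restored by identifier for 26 genes, and 19051 identifiers (99.2%) matched a RefSeq table of GRCm38.p6. On log2(FPKM + 1), limma 3.58.1 (R 4.3.3, trend on mean level, no covariates) was fitted separately to the 12 libraries of each comparison. A fold change on this scale understates that of low genes. The procedure was also tested on simulated data, whose means and spread were taken from these libraries. The named genes were, per comparison, the 8 largest rises and 8 largest falls among called genes, or without calls the 3 with the smallest p each way, plus the 3 highest and 3 lowest in level and Mrpl12, Mrps18a, Mrps18b, Mrps18c, Mrps30 and Mrps36. Up to 2 called genes of each related list with the largest change after infarction, and Ppargc1a, Nrf1, Gabpa, Esrra and Myc, were named too. Alternatives were a pseudocount of 0.1, no filter, a filter at 5 FPKM, median-ratio and quantile scaling, one fit over 18 libraries, no trend, a replicate block, and leaving out each heart. Library pairs of a group correlated at 0.925 to 0.993 across genes and none was identical. Positions come from GENCODE M21. Copies are stretches of at least 100 bases at 97% identity, found in 22 of the 78 genes, and exons of 23 overlap those of a coding gene.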

Additional observations from a re-analysis of the deposited data

Results flagged for a closer look

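For the genes named, 6 values stood apart from the other 5 hearts of their group, by a gap to the nearest heart that is a large share of the group's range (Dixon's 95% criterion). Chance marks about 1 group in 20, and 6 of 75 groups were marked; over all 78 genes it was 14 of 234. Of the 6 among named genes, 3 were high values of the first sham heart. Mrpl12 was at 183.4 FPKM there, with the next sham heart at 139.0, Mrpl20 was at 73.7 FPKM with the next at 56.9, and Mrpl52 was at 118.5 FPKM with the next at 76.5. Without that heart the 9 genes called higher in MI_vehicle over sham_vehicle hearts were still 9 in number, and those lower were 22.

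MI_vehicle replicate 4 was high in Mrpl30, at 221.6 FPKM with the next infarcted heart at 168.8, and in Mrps21, at 226.8 FPKM with the next at 155.8. Sham_vehicle replicate 4 was high in Mrpl17, at 8.13 FPKM with the next at 7.48, a gap of 0.65 FPKM, and still below the lowest MI_vehicle heart at 8.96.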

How the results depend on the processing

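Values without counts give no depth limit of their own, so precision rests on 6 libraries a group. For MI_vehicle against sham_vehicle hearts, leaving out each heart gave 7 to 9 genes higher and 21 to 30 lower of the 78, and 4017 to 4979 higher and 2038 to 2740 lower over all genes. Median-ratio scaling gave 5 and 39 of the 78, against 9 and 24 as deposited, and quantile normalization 4 and 38, with 3693 genes lower against 2408; the cause was not tested. The other 6 settings gave counts within 1.5 times of those reported. For MI_DCA against MI_vehicle hearts none of the 78 was called under any setting, and over all genes leaving out each heart gave 0 higher and 0 to 1 lower. For MI_DCA against sham_vehicle hearts, leaving out each heart gave 0 to 5 higher and 1 to 9 lower of the 78, and 740 to 2596 higher and 315 to 1489 lower over all genes. Median-ratio scaling gave 2 and 5 of the 78, against 4 and 2, and quantile normalization 1555 genes lower against 987; the cause was not tested. Members whose groups did not overlap were also counted leaving out each heart, an alternative chosen after seeing the data. For MI_vehicle against sham_vehicle hearts they numbered 5 to 7 higher and 9 to 23 lower. The shares of all genes tested were 16.4% to 31.2% and 5.77% to 14.2%. For MI_DCA against MI_vehicle hearts they numbered 0 to 6 and 0, against 0.0916% to 0.442% and 0.516% to 2.32% of all genes. For MI_DCA against sham_vehicle hearts they numbered 1 to 4 and 1 to 3, against 6.39% to 10.9% and 2.87% to 4.97%. No named gene with a call reversed its direction under any setting.

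Replicate numbers are shared between groups, but nothing says that they pair hearts. Same-numbered hearts deviated together with correlations of -0.05 to 0.14 (MI_vehicle and sham_vehicle), -0.45 to 0.69 (MI_DCA and MI_vehicle) and -0.09 to 0.24 (MI_DCA and sham_vehicle), and in each pairing 1 of 6 hearts correlated best with its own number. With a replicate block, MI_DCA against sham_vehicle hearts gave 1 gene higher and 1 lower of the 78, and 1124 higher and 572 lower over all genes; the other 2 comparisons stayed within 1.5 times.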
